A study of Mus musculus with 6 samples.

Results

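The mitochondrial fission machinery was examined as 9 named genes, *Dnm1l*, *Fis1*, *Mff*, *Mief1*, *Mief2*, *Gdap1*, *Mtfr1*, *Mtfp1* and *Inf2*, of the 55291 genes listed for each library. The genes were taken by name, and no threshold on a measured value entered the rule. RNA-seq libraries came from WT mouse embryonic fibroblasts (MEFs), cells grown from mouse embryos, with 2 libraries in each of 3 groups. The first group received vehicle for a time that was not given. The second received MASM7, a small molecule activator of the mitofusins, at 1 µM for 6 h. The third received MFI8, a small molecule inhibitor of the mitofusins, at 20 µM for 6 h. The 2 libraries of a group are described as biological replicates. Since the compounds were used at different concentrations, compound and concentration cannot be told apart, and each compound was compared with the same 2 vehicle libraries. Whether the division genes differ in mRNA level when fusion is activated or inhibited is the question these comparisons bear on.

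Mitochondria divide when DRP1, a dynamin-like GTPase made from *Dnm1l*, is recruited from the cytosol and assembles into a ring that constricts the outer membrane. DRP1 has no membrane anchor of its own. It is held by receptors in the outer membrane: MFF, which favours division, and the related proteins MiD51 (*Mief1*) and MiD49 (*Mief2*), which can hold DRP1 in either an active or an inactive state. FIS1, also in the outer membrane, is grouped with these receptors here. Constriction begins where the endoplasmic reticulum crosses the mitochondrion, and there the formin INF2 polymerizes actin ahead of DRP1. MTFP1 is an inner membrane protein linked to division, MTFR1 is a regulator linked to division, and GDAP1 is an outer membrane protein known mainly from neurons.

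All 9 genes are protein-coding in the GENCODE vM21 annotation of GRCm38, the genome build used for the counts. The GTPase gene *Dnm1l* lies on chromosome 16 from 16312230 to 16358959 on the minus strand. The receptor genes are *Fis1* on chromosome 5 from 136953275 to 136966234, *Mff* on chromosome 1 from 82724890 to 82752394, *Mief1* on chromosome 15 from 80234018 to 80253371 and *Mief2* on chromosome 11 from 60728398 to 60732951, all on the plus strand. Of the remaining genes, *Inf2* lies on chromosome 12 from 112588784 to 112615557, *Mtfr1* on chromosome 3 from 19187327 to 19220817, *Gdap1* on chromosome 1 from 17145362 to 17164271, all on the plus strand, and *Mtfp1* on chromosome 11 from 4091480 to 4095445 on the minus strand. *Dnm1l* shares 4.67% of its exon bases with the antisense gene Gm49521, *Mff* shares 2% with C430014B12Rik on the opposite strand, and *Mief1* shares 2.63% with AC140267.1 on the same strand. These neighbours had at most 7, 9 and 0 counts in a library, and how reads in the shared bases were assigned is not stated.

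RefSeq promoter windows were matched by symbol for 7 of the 9 genes, with no entry for *Gdap1* and *Mtfr1*. The 250 bases before the start that RefSeq gives are shown for the receptor genes *Mff*, *Mief1* and *Mief2*, whose values with MFI8 did not overlap those with vehicle, and for *Mtfp1*, the member with the lowest detected level. They read 5′ to 3′ along the gene and come from GRCm38.p6 at chr1:82724640-82724889, chr15:80233830-80234079, chr11:60728148-60728397, all on the plus strand, and chr11:4095432-4095681 on the minus strand, in that order. The RefSeq start of *Mief1* lies 62 bases and that of *Mtfp1* 14 bases inside the GENCODE gene, so the ends of these windows overlap it. Capitals mark matches on either strand to the CCAAT box (CCAAT), the GC box (GGGCGG) or the E-box (CACGTG).
Mff: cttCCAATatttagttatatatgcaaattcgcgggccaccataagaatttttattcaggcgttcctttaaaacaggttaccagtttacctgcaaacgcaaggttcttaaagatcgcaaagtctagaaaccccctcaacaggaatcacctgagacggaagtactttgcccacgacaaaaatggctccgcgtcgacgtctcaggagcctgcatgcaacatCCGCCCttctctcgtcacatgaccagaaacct
Mief1: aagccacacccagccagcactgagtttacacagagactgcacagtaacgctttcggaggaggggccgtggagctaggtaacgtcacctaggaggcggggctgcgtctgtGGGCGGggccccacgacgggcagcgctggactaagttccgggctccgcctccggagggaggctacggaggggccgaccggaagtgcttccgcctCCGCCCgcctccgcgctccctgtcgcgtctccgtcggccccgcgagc
Mief2: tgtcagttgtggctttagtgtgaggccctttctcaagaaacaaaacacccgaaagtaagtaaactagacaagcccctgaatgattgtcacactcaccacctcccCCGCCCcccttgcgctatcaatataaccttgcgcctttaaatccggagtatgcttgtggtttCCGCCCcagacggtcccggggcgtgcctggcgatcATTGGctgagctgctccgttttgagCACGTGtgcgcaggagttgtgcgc
Mtfp1: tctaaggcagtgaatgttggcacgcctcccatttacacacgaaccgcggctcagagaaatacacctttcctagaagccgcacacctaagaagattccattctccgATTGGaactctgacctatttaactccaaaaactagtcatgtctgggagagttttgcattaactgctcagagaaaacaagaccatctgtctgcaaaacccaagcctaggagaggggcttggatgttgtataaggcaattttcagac
The *Mief2* window held 1 CCAAT box, 2 GC boxes and 1 E-box, and the *Mief1* window held 2 GC boxes. The *Mff* window held 1 CCAAT box and 1 GC box, and the *Mtfp1* window held 1 CCAAT box. Of the 32851 promoter windows in the table, 33.8% held a CCAAT box, 32.7% a GC box and 6.02% an E-box. CG dinucleotides numbered 27 in *Mief1*, 14 in *Mief2*, 13 in *Mff* and 6 in *Mtfp1*, against a median of 6 over all windows. A search for the CRE (TGACGTCA, in 1.55% of all windows) found no match in the 7 members' windows. These matches describe the sequence and were not tested for binding.

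The libraries held 22791792 to 30677751 counts on genes, and the 9 fission genes together took 15393 to 20445 of them. The cells carried fibroblast markers, with 9 of 10 at a median of 1 TPM (a level scaled for gene length and library total) or more and a summed level of 5514 to 7069 TPM. *Thy1* was the exception at 0.283 to 0.751 TPM. Marker lists for epithelium, blood and immune cells, endothelium, muscle and neural cells each summed to at most 0.636 TPM, and no single marker in them exceeded 0.486 TPM. In bulk RNA, a smaller number of expressing cells and less RNA per cell cannot be told apart.

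The fission genes were expressed at very different levels in these fibroblasts. *Dnm1l*, *Fis1*, *Mtfr1* and *Inf2* stood between 82.9 and 136.9 TPM, *Mief1*, *Mff* and *Mief2* between 14.1 and 35.4 TPM, *Mtfp1* near 1 TPM, and *Gdap1* was not detected. The level of *Dnm1l* was 128.6 and 136.9 TPM in the vehicle libraries, 129.2 and 118.6 TPM after MASM7, and 133.1 and 130.0 TPM after MFI8. *Fis1* had 127.3 and 119.9 TPM with vehicle, 126.6 and 126.9 TPM with MASM7, and 127.2 and 123.7 TPM with MFI8. The levels of these 2 genes overlapped across libraries, so their order was not resolved.

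*Mtfr1* followed at 110.9 and 114.0 TPM with vehicle, 108.0 and 110.1 TPM with MASM7, and 110.6 and 118.8 TPM with MFI8. *Inf2* had 98.0 and 82.9 TPM with vehicle, 107.9 and 93.5 TPM with MASM7, and 103.7 and 89.0 TPM with MFI8. From *Fis1* downward no gene's range over the 6 libraries overlapped that of the next. The gaps were narrow between *Fis1* and *Mtfr1* and between *Mtfr1* and *Inf2*, with ratios of medians of 1.14 and 1.16. The step from *Inf2* to *Mief1* was wide, at a ratio of 2.93.

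Among the receptors, *Fis1* was the most abundant mRNA. *Mief1* had 32.6 and 32.1 TPM with vehicle, 32.8 and 32.2 TPM with MASM7, and 35.4 and 35.3 TPM with MFI8. *Mff* had 21.97 and 23.65 TPM with vehicle, 21.3 and 21.9 TPM with MASM7, and 20.7 and 21.5 TPM with MFI8. *Mief2* had 14.9 and 14.1 TPM with vehicle, 16.4 and 15.1 TPM with MASM7, and 17.5 and 17.7 TPM with MFI8. In TPM the order *Fis1*, *Mief1*, *Mff*, *Mief2* held in each of the 6 libraries, and for both *Mief* genes the MFI8 libraries were the highest. The TPM values imply exon lengths near 9757 bases for *Mff* and 8106 for *Mief1*, whose longest transcripts have 3918 and 5148 bases. An order per longest transcript was not computed and may differ for these genes. For *Mff* the vehicle libraries were the highest in TPM, while in CPM (counts scaled to the library total) they overlapped with MASM7.

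**Figure D1:**
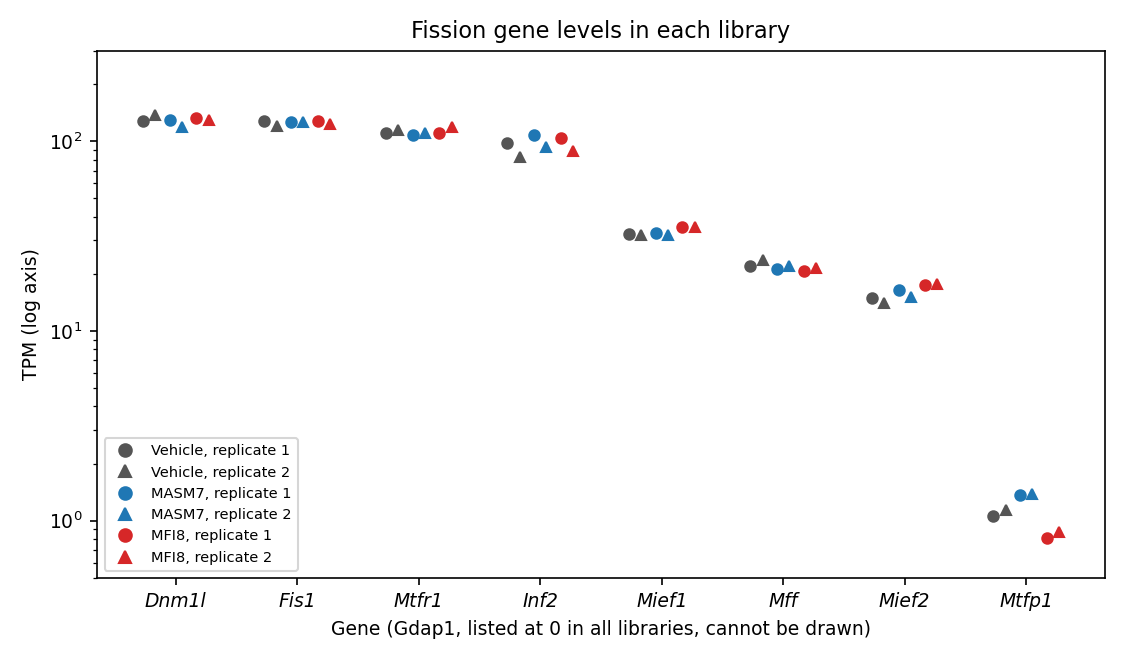
TPM of each detected fission gene on a log axis, with 1 point per library, coloured by group and shaped by replicate number. *Dnm1l*, *Fis1*, *Mtfr1* and *Inf2* lie between 82.9 and 136.9 TPM, *Mief1*, *Mff* and *Mief2* between 14.1 and 35.4 TPM, and *Mtfp1* between 0.812 and 1.38 TPM.

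The 2 genes at the bottom of the order were *Mtfp1* and *Gdap1*. *Mtfp1* was counted 12 and 14 times with vehicle, 20 and 21 times with MASM7, and 9 and 13 times with MFI8, which corresponded to 0.812 to 1.38 TPM. The exact 95% Poisson interval of the lowest of these counts, 9, was 4.12 to 17.1, and that of the highest, 21, was 13.0 to 32.1. These intervals cover counting error only, and they overlap. *Gdap1* had 0 counts in all 6 libraries. At 3 counts, the limit that a count of 0 allows, its level was at most 0.132 CPM in the shallowest library and at most 0.0185 CPM over the 161954643 counts of all libraries. The order of the genes was the same when counts were divided by the exon length of the GENCODE vM21 gene model. Since the TPM values imply nearly the same lengths, this agreement was fixed in advance and is no separate check.

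MFI8 was compared with vehicle first, in edgeR's quasi-likelihood test over the 14290 genes left by its low-count filter. Of the 9 fission genes, 8 were tested, since *Gdap1* had no counts. With Benjamini-Hochberg adjustment 0 of the 8 passed an adjusted p of 0.05, as did 0% of all genes tested. The DESeq2 Wald test called 0 of the 8, against 48 of 13049 genes with an adjusted p. Limma on TPM called 0 of the 8, against 0 of 14710 genes. At an unadjusted p under 0.05, 2 of the 8 differed, *Mief2* and *Mff*, against 9.86% of all genes tested. Libraries did not overlap with vehicle for 4 of the 8, against 40.2% of all genes. The members' median log2 fold change was -0.0017, against 0.0027 over all genes.

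The 4 genes whose MFI8 and vehicle libraries did not overlap were *Mief2*, *Mief1*, *Mff* and *Mtfp1*. *Mief2* had 13.2 and 13.3 CPM with MFI8 against 11.5 and 10.8 CPM with vehicle. Both MFI8 libraries lay above both vehicle libraries, the log2 fold change was 0.25 (SE 0.10) and the 95% interval of the fold was 1.01 to 1.40, with an adjusted p of 0.464 in edgeR. *Mief1*, its paralogue, had 79.5 and 79.3 CPM with MFI8 against 75.1 and 73.2 CPM with vehicle. These libraries did not overlap either, and the log2 fold change was 0.10 (SE 0.055, edgeR adjusted p = 0.578).

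*Mff* had 56.0 and 58.1 CPM with MFI8 against 61.0 and 64.8 CPM with vehicle, so both MFI8 libraries lay below both vehicle libraries. Its log2 fold change was -0.14 (SE 0.062), the 95% interval of the fold was 0.824 to 0.998 and edgeR's adjusted p was 0.495. *Fis1* gave a log2 fold change of -0.0056, with an interval of the fold from 0.905 to 1.10 and overlapping libraries. *Dnm1l* had a log2 fold change of -0.039 (SE 0.058) with overlapping libraries, and the interval of its fold was 0.890 to 1.06. With 1 library left out at a time this value ran from -0.073 to -0.0022.

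The remaining members gave values near 0 or wide intervals with MFI8. The log2 fold change was 0.0021 for *Mtfr1*, with an interval of the fold from 0.919 to 1.09, and 0.062 for *Inf2*, with an interval from 0.891 to 1.22. Both overlapped with vehicle. *Mtfp1* had 0.392 and 0.421 CPM with MFI8 against 0.526 and 0.556 CPM with vehicle. These values did not overlap, but the interval of the fold, 0.413 to 1.38, was the widest of the 8 and edgeR's adjusted p was 0.768.

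**Figure D2:**
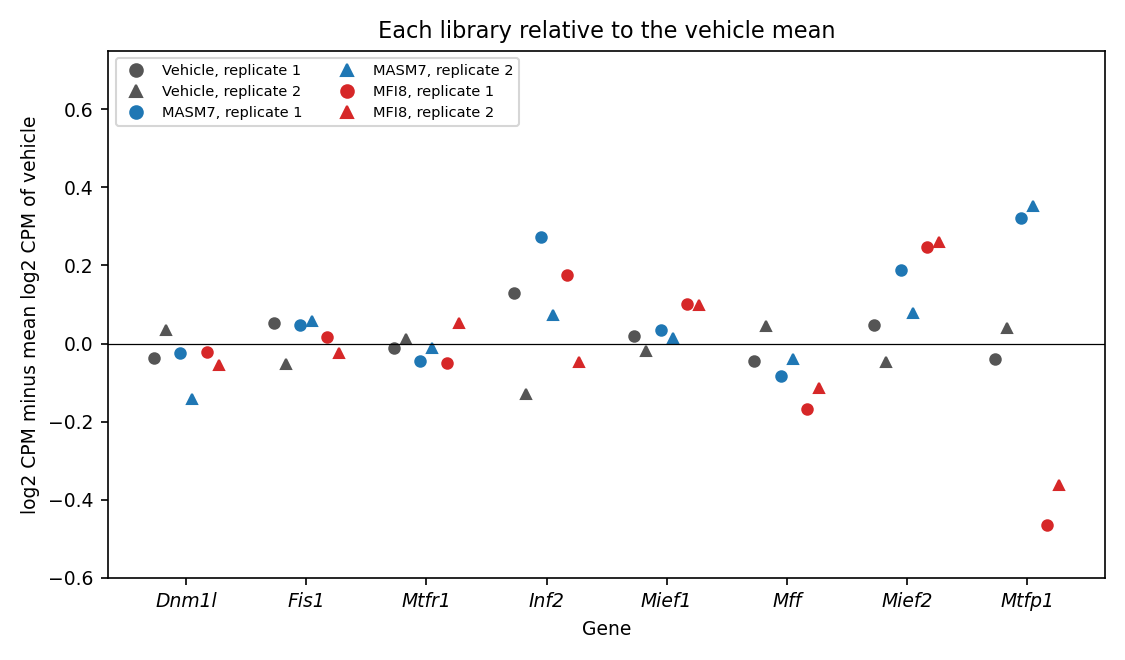
Log2 CPM of each library minus the mean log2 CPM of the 2 vehicle libraries, for the 8 detected fission genes, with points coloured by group and shaped by replicate number. The MFI8 points of *Mief1* and *Mief2* lie above both vehicle points and those of *Mff* and *Mtfp1* below them, while for *Inf2* replicate 1 lies above replicate 2 in every group.

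The ratio of *Mff* to the summed *Mief1* and *Mief2* expresses the receptor values within each library, and was formed after these values had been seen. In TPM it was 0.463 and 0.511 in the vehicle libraries, 0.434 and 0.463 after MASM7, and 0.391 and 0.405 after MFI8. The group means were 0.487 ± 0.034 (SD, n = 2), 0.448 ± 0.021 and 0.398 ± 0.010. Both MFI8 libraries lay below all 4 others, and the MASM7 and vehicle libraries met at 0.463. The ratio of *Mief1* to *Mief2* was 2.19 and 2.28 in the vehicle libraries, 2.01 and 2.14 after MASM7, and 2.02 and 2.00 after MFI8. As these ratios follow from values already given, no test was made of them. The summed level of the 4 receptor genes was 1.39 to 1.65 times that of *Dnm1l* in all 6 libraries, and both compounds' libraries overlapped with vehicle. When *Fis1* was left out of the sum, no such overlap remained. The vehicle libraries then stood at 0.540 and 0.511 times *Dnm1l*. Both compounds lay above them, MASM7 at 0.546 and 0.583 and MFI8 at 0.552 and 0.572. The gap from 0.540 to 0.546 was narrow, and this ratio was not tested either.

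**Figure D3:**
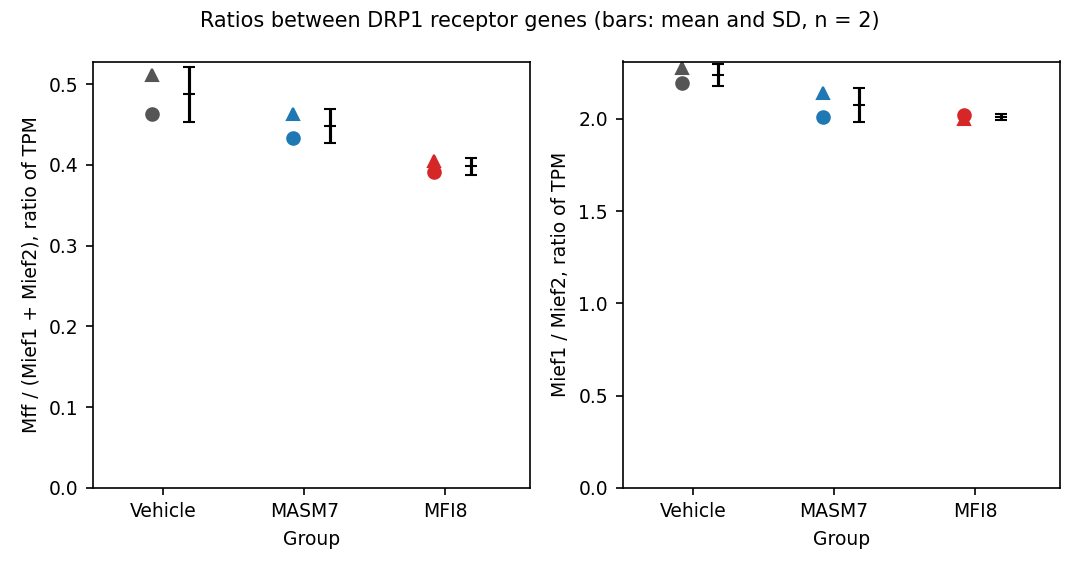
Ratios of TPM between receptor genes in each library, *Mff* to *Mief1* plus *Mief2* on the left and *Mief1* to *Mief2* on the right, with axes from 0 and black bars for the mean and SD of 2 libraries. The first ratio is 0.391 and 0.405 with MFI8 and 0.434 to 0.511 in the other 4 libraries.

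GC content of the transcript moved with the fold changes over all genes. When the tested genes were split into 4 equal bins by GC, from the lowest bin to the highest the median log2 fold change with MFI8 went from -0.064 to 0.073, and with MASM7 from -0.090 to 0.106. *Mff*, at 37.3% GC, is the member with the lowest GC content, and *Mief2* and *Inf2*, at 57.6% and 60.4%, are those with the highest. When the fit carried offsets for both GC content and the length of the transcript, the log2 fold change with MFI8 was -0.051 for *Mff*, 0.18 for *Mief2* and 0.071 for *Mief1*, each in the direction it had without the offsets. With them 0 of the 8 members had an unadjusted p under 0.05, against 7.36% of all genes tested in that fit, and edgeR's adjusted p was 0.854 for *Mff* and 0.726 for *Mief2*.

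MASM7 was compared with vehicle in the same fit. Again 0 of the 8 members passed in edgeR at an adjusted p of 0.05, as did 0% of all genes. DESeq2 called 0 of the 8, against 2 of 26760 genes, and limma 0 of the 8, against 0 of 14710 genes. At an unadjusted p under 0.05, 0 of the 8 differed, against 10.2% of all genes tested. Libraries did not overlap with vehicle for 3 of the 8 (*Mief2*, *Mtfp1* and *Mtfr1*), against 42.8% of all genes. The median log2 fold change was 0.039 over the members and 0.00067 over all genes.

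*Inf2*, the formin of the division site, had the smallest p of the members with MASM7. It had 149.9 and 130.5 CPM with MASM7 against 135.9 and 113.4 CPM with vehicle, so the groups overlapped. The log2 fold change was 0.17 (SE 0.10), the interval of the fold was 0.961 to 1.32 and edgeR's adjusted p was 0.572. In each group the library numbered 1 was the higher for *Inf2*, by 0.26, 0.20 and 0.22 on the log2 scale with vehicle, MASM7 and MFI8. Leaving out vehicle replicate 1 gave a log2 fold change of 0.31, and leaving out vehicle replicate 2 gave 0.046. With the offsets for GC content and length it was 0.039.

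The GTPase and its receptors also did not pass the test with MASM7. *Dnm1l* had 191.8 and 176.9 CPM with MASM7 against 190.3 and 200.02 CPM with vehicle, a log2 fold change of -0.082 (SE 0.058) with overlapping libraries. Among the receptors the log2 fold change was 0.053 for *Fis1*, -0.061 for *Mff*, 0.024 for *Mief1* and 0.13 for *Mief2*, and edgeR's adjusted p was at least 0.657 for these 4 genes. With 1 library left out at a time the MASM7 value ran from -0.14 to -0.025 for *Dnm1l*, from 0.0019 to 0.105 for *Fis1*, from -0.105 to -0.016 for *Mff*, from 0.0057 to 0.043 for *Mief1* and from 0.078 to 0.189 for *Mief2*. *Mief2* had 12.7 and 11.7 CPM with MASM7, both above the vehicle libraries. With the offsets the *Mief2* value was 0.023, and those of *Mff* and *Dnm1l* were 0.066 and 0.013, on the other side of 0.

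The MASM7 libraries of *Mtfr1* and *Mtfp1* did not overlap with vehicle, and neither gene passed the test. *Mtfr1* had 134.7 and 137.99 CPM with MASM7 against 138.00 and 140.0 CPM with vehicle, which almost touch, and a log2 fold change of -0.028 with an interval of the fold from 0.900 to 1.07. *Mtfp1* had 0.676 and 0.690 CPM with MASM7 against 0.526 and 0.556 CPM with vehicle. Its log2 fold change was 0.33 (SE 0.35), with an interval of the fold from 0.731 to 2.17 and an edgeR adjusted p of 0.752.

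**Figure D4:**
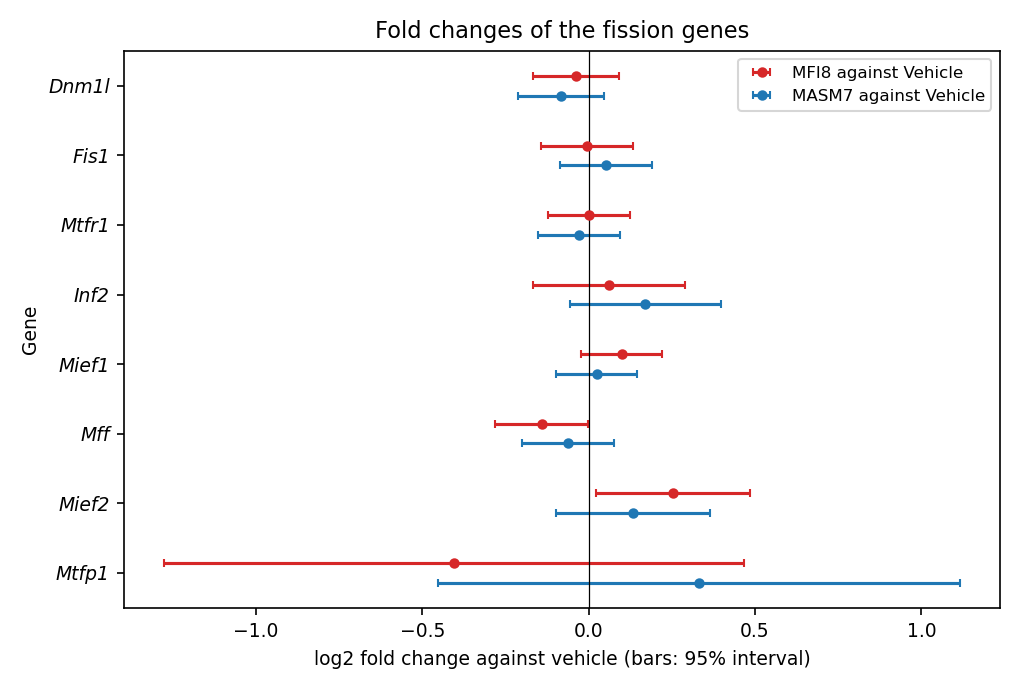
Log2 fold change against vehicle of the 8 tested fission genes for MFI8 and MASM7, with bars for the 95% interval from the edgeR fit of 2 libraries per group. The intervals of *Dnm1l*, *Fis1*, *Mtfr1*, *Mief1* and *Inf2* include 0 for both compounds, those of *Mff* and *Mief2* with MFI8 end near 0, and those of *Mtfp1* are the widest.

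**Figure D5:**
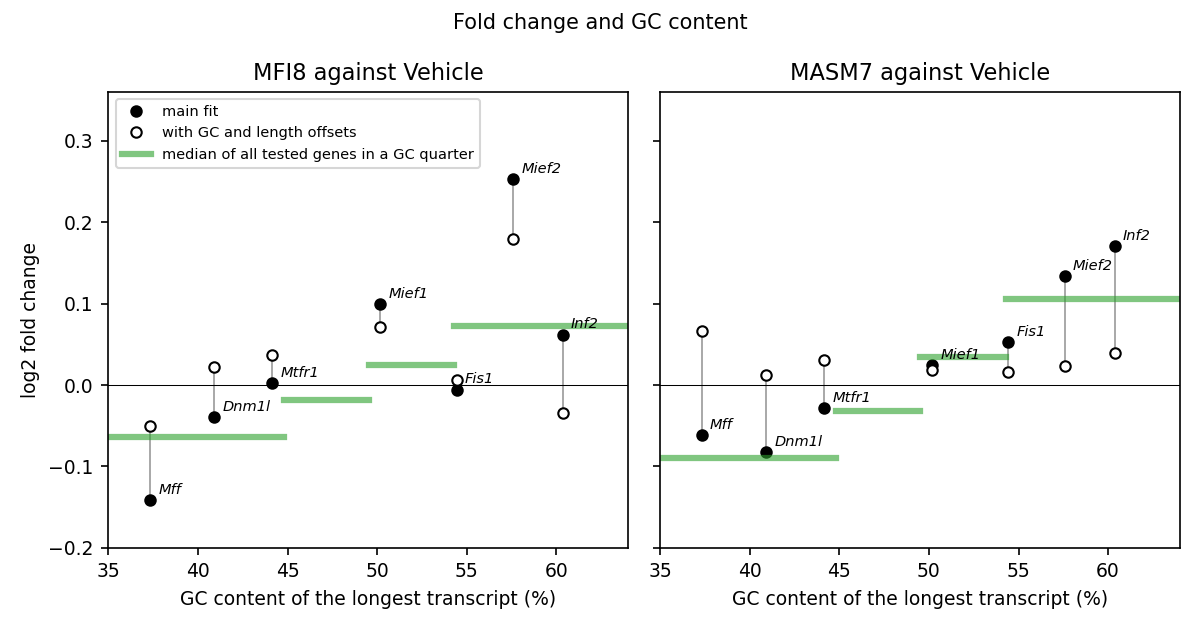
Log2 fold change against GC content of the longest transcript for the tested fission genes other than *Mtfp1*, whose values are off this scale, without offsets (filled) and with GC and length offsets (open), and the median of all tested genes in each of 4 GC bins (green bars, cut at the axis limits). With offsets the *Mff* value goes from -0.14 to -0.051 with MFI8, and the *Inf2* value goes from 0.17 to 0.039 with MASM7.

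MFI8 was then set against MASM7 directly, although the concentrations differed. In edgeR 0 of the 8 members passed an adjusted p of 0.05, as did 0% of all genes. DESeq2 called 0 of the 7 members to which it gave an adjusted p, against 29 of 12559 genes. Limma called 0 of the 8, against 0 of 14710 genes. At an unadjusted p under 0.05, 0 of the 8 differed, against 7.18% of all genes, and libraries did not overlap for 5 of the 8, against 39.2% of all genes. *Mtfp1* showed the widest gap, at 0.392 and 0.421 CPM with MFI8 against 0.676 and 0.690 CPM with MASM7, from the 9 and 13 against 20 and 21 counts given above. The log2 fold change was -0.74 (SE 0.36), the interval of the fold 0.343 to 1.05 and edgeR's adjusted p 0.704, and 2.19% of all tested genes had a larger fold change in size. The other 4 genes without overlap were *Mief1* and *Mief2*, higher with MFI8, and *Fis1* and *Mff*, lower with MFI8, with log2 fold changes of 0.075, 0.12, -0.059 and -0.080 and edgeR adjusted p values of at least 0.788.

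None of the fusion counterparts *Mfn1*, *Mfn2* and *Opa1* passed in edgeR for either compound. *Mfn1*, a mitofusin of the outer membrane, had 63.5 and 63.4 TPM with vehicle, 58.3 and 57.0 TPM with MASM7, and 62.3 and 59.3 TPM with MFI8. *Mfn2*, the other mitofusin, had 80.6 and 81.3 TPM with vehicle, 79.1 and 82.0 TPM with MASM7, and 85.2 and 87.3 TPM with MFI8. *Opa1*, the GTPase of inner membrane fusion, had 70.1 and 73.1 TPM with vehicle, 66.2 and 66.9 TPM with MASM7, and 71.9 and 72.0 TPM with MFI8.

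For *Mfn1* both compounds' libraries lay below vehicle, with log2 fold changes of -0.12 (SE 0.054, edgeR adjusted p = 0.488) for MASM7 and -0.089 (SE 0.054, edgeR adjusted p = 0.610) for MFI8. For *Mfn2* the MFI8 libraries lay above vehicle at a log2 fold change of 0.065 (SE 0.053, edgeR adjusted p = 0.707), and the MASM7 libraries overlapped. For *Opa1* the MASM7 libraries lay below vehicle at -0.088 (SE 0.050, edgeR adjusted p = 0.554). The level of *Dnm1l* was above those of *Mfn1*, *Mfn2* and *Opa1* in each of the 6 libraries.

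Of the 9 genes listed for the fusion machinery, 8 were tested and 0 passed in edgeR for either compound. At an unadjusted p under 0.05 there were 1 with MFI8, which was lower, and 4 with MASM7, of which 3 were lower and 1 higher, against 9.86% and 10.2% of all genes tested. The list's median log2 fold change was -0.064 with MFI8 and -0.10 with MASM7. With the GC and length offsets these medians were -0.030 and -0.033, and the counts were 0 and 1, where 7.36% and 5.4% of all genes passed. *Slc25a46*, an outer membrane carrier relative linked to fusion, had 35.7 and 36.1 TPM with MASM7 against 41.5 and 42.5 TPM with vehicle, at a log2 fold change of -0.21 (SE 0.058, edgeR adjusted p = 0.466). Its MFI8 libraries also lay below vehicle, at -0.091 (SE 0.058). *Yme1l1*, an inner membrane protease that cuts OPA1, had 88.2 and 94.5 TPM with MFI8 against 98.4 and 103.3 TPM with vehicle, at -0.17 (SE 0.058, edgeR adjusted p = 0.412). Its MASM7 libraries also lay below vehicle, at -0.15 (SE 0.058).

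Relatives of the fission genes and other outer membrane factors made a list of 13, of which 12 were tested and 0 passed in edgeR. With MFI8 the log2 fold change was below 0 for 11 of the 12, with a median of -0.11 against 0.0027 over all genes, and 2 were lower at an unadjusted p under 0.05, where 9.86% of all genes tested passed in either direction. With the offsets the median was -0.074, against -0.0032 over all genes. In that fit 12 of 12 were below 0 and 0 had an unadjusted p under 0.05, against 7.36% of all genes. With MASM7 the median was -0.093, 7 of 12 were below 0 and 1 had an unadjusted p under 0.05, against 10.2% of all genes. With the offsets the MASM7 median was -0.017, against 0.0024 over all genes. There 9 of 12 were below 0 and 0 had an unadjusted p under 0.05, against 5.4% of all genes. The list includes genes with as few as 6 and 10 counts in a library, and its counts below 0 were not tested. *Fundc2*, an outer membrane protein related to the mitophagy receptor FUNDC1, had 99.5 and 107.4 TPM with MFI8 against 113.4 and 114.9 TPM with vehicle (log2 fold change -0.17, SE 0.058, edgeR adjusted p = 0.413). Its MASM7 libraries also lay below vehicle (log2 fold change -0.13, SE 0.058). *Tbc1d15*, a Rab GTPase-activating protein that binds FIS1, had 78.4 and 71.7 TPM with MASM7 against 83.7 and 90.2 TPM with vehicle (log2 fold change -0.20, SE 0.062, edgeR adjusted p = 0.473). Its MFI8 libraries also lay below vehicle (log2 fold change -0.12, SE 0.062).

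Of the other dynamins, *Dnm2* had 62.2 to 67.2 TPM over the 6 libraries. *Dnm1* had 121.4 and 83.8 TPM with vehicle, 121.8 and 93.0 TPM with MASM7, and 115.2 and 84.6 TPM with MFI8, and as with *Inf2* the library numbered 1 was the higher in each group. *Dnm3* had at most 0.164 TPM. These 3 dynamins were named after their values had been seen.

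Kinases, phosphatases and ubiquitin or SUMO enzymes that modify DRP1 made a list of 25, of which 24 were tested and 0 passed in edgeR. At an unadjusted p under 0.05 there were 5 with MFI8, 4 of them lower, and 3 with MASM7, all lower, against 9.86% and 10.2% of all genes tested. The median log2 fold change was -0.042 with MFI8 and -0.033 with MASM7. With the offsets the counts were 4 and 0, where 7.36% and 5.4% of all genes passed, and the medians were -0.039 and -0.013. The serine/threonine kinase *Pim1* had the smallest p of the list with MFI8. It had 22.7 and 24.6 TPM with MFI8 against 17.8 and 16.4 TPM with vehicle and 16.1 and 17.1 TPM with MASM7. Against vehicle its MFI8 log2 fold change was 0.44 (SE 0.095), with an unadjusted p of 0.00099 and an adjusted p of 0.248 in edgeR. *Ppp3ca*, a catalytic subunit of the phosphatase calcineurin, which dephosphorylates DRP1, had 27.6 and 24.0 TPM with MASM7 against 30.7 and 28.6 TPM with vehicle (log2 fold change -0.19, SE 0.074, edgeR adjusted p = 0.477). Its MFI8 libraries overlapped with vehicle (log2 fold change -0.072, SE 0.075).

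Genes for actin and for membrane contact at the division site made a list of 15, all of them tested and 0 passing in edgeR. At an unadjusted p under 0.05 there were 2 with MFI8, 1 in each direction, and 2 with MASM7, both higher, against 9.86% and 10.2% of all genes tested. The median log2 fold change was -0.020 with MFI8 and 0.030 with MASM7. With the offsets the counts were 4 and 1, where 7.36% and 5.4% of all genes passed, and the medians were -0.0082 and 0.041. *Myh9*, the heavy chain of non-muscle myosin IIA, had 555.6 and 520.5 TPM with MASM7 against 505.1 and 453.5 TPM with vehicle (log2 fold change 0.18, SE 0.062, edgeR adjusted p = 0.473). With MFI8 it was also above vehicle, at 565.9 and 569.2 TPM (log2 fold change 0.22, SE 0.062, edgeR adjusted p = 0.357). *Septin7*, a subunit of the septin filaments, had 107.5 and 113.1 TPM with MFI8 against 118.2 and 133.5 TPM with vehicle (log2 fold change -0.22, SE 0.061, edgeR adjusted p = 0.357). Its MASM7 libraries also lay below vehicle (log2 fold change -0.10, SE 0.061). No gene was tested by permuting the libraries, since 2 against 2 allow no two-sided exact p under 0.333.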

How the data were processed

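PolyA RNA from WT MEFs was made into libraries with a TruSeq RNA kit, which does not mark strand. The authors demultiplexed reads with bcl2fastq, trimmed them with Trimmomatic, and aligned them to mm10/GRCm38 with STAR. Reads over exons were tallied by featureCounts, and the authors deposited these raw counts. They also deposited TPM values. The versions of the trimmer, aligner and counter, the annotation and the strand setting are not given in the sources used here. For 99.4% of the tested genes matched by symbol, the gene length implied by TPM was within 10% of the exon union in GENCODE vM21. The deposited counts divided by DESeq2 size factors were not used. Compound doses and times came from the study's text, and groups from the labels.

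Raw counts of all 6 libraries were fitted in edgeR 4.0.16 (R 4.3.3) with TMM factors and tested by the quasi-likelihood F test, with Benjamini-Hochberg adjustment over 14290 genes passing filterByExpr. The script was tested on simulated data. CPM used TMM factors. Intervals are 95%. p-values measure the spread between these libraries. GC and length offsets were fitted per library by lowess (span 0.3) on the longest GENCODE transcript. Other alternatives were DESeq2 1.42.0, limma 3.58.1 on log2(TPM + 1) for genes at 1 TPM or more in 2 libraries, other filters and scalings, a replicate block, and leaving out each library. The offsets for lists and GC bins were added after the data were seen.

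The 9 members and the other lists were chosen with earlier results of these data known. Named outside the 9 were Mfn1, Mfn2 and Opa1, any gene of another list with an adjusted p under 0.05 against vehicle, and from each list the gene with the smallest p for each compound among those not overlapping vehicle. Dnm1, Dnm2 and Dnm3 were named outside this rule, after their values had been seen.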

Additional observations from a re-analysis of the deposited data

How the results depend on the processing

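The count of all genes past an adjusted p of 0.05, which was 0 for MFI8 against vehicle, MASM7 against vehicle and MFI8 against MASM7, was in that order 256, 127 and 168 without a filter beyond 1 count in any library, 48, 2 and 29 with the DESeq2 Wald test, 720, 554 and 439 with the replicate number as a block, and 598, 173 and 702 with the block and the GC and length offsets together. With only the 2 groups compared it was 0, 1 and 2. Leaving out 1 library at a time gave 0 to 26, 0 to 2 and 0 to 24. The cause of these differences was not tested. The number of fission genes called was 0 under each of these alternatives but 1. With the replicate block 1 member passed for MASM7 against vehicle, *Inf2*, at a log2 fold change of 0.17 and an edgeR adjusted p of 0.0334, against a range of 0.0334 to 1 over its alternatives. With the offsets added to the block its log2 fold change was 0.037. The labels name no shared culture or day for a replicate number, so the numbers were not taken as pairs. Deviations of same-numbered libraries from their group means correlated at 0.156 to 0.189 over all genes and at 0.508 to 0.621 over the genes above the median level.

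The log2 fold changes that changed sign were all within 0.07 of 0 under the alternative. For MFI8, *Fis1* was 0.0052 with library size alone, 0.0020 without the filter, 0.022 with limma on TPM, 0.0063 with the offsets and 0.0073 with the offsets and block, and between -0.057 and 0.049 with a library left out. *Dnm1l* was 0.022 with the offsets and 0.020 with the offsets and block. *Inf2* was -0.035 and -0.034 in these, and -0.063 to 0.199 with a library left out. *Mtfr1* was -0.0039 with at least 10 counts in every library, -0.00094 with only the 2 groups compared, and -0.050 to 0.054 with a library left out. For MASM7, the offsets alone and with the block gave 0.013 and 0.012 for *Dnm1l*, 0.066 and 0.066 for *Mff*, and 0.031 and 0.031 for *Mtfr1*. *Mief1*, *Mief2* and *Mtfp1* kept their sign against vehicle under every alternative run, *Fis1* and *Inf2* did so for MASM7, and *Mff* did so for MFI8, where it ran from -0.18 to -0.051. *Mtfp1* gave no value under the filter of at least 10 counts in every library. Its counts of 9 to 21 limit its precision, and *Gdap1*, with 0 counts, could not be tested.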
